A study of Homo sapiens with 8 samples.

Results

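Open chromatin around 10 genes of the p53 and integrated stress responses was followed in NCI-H295R cells, an established human adrenocortical carcinoma line, by ATAC-seq. In this assay the transposase Tn5 cuts accessible DNA and tags it for sequencing, so peaks mark open chromatin. The genes were CDKN1A, MDM2, BBC3, GADD45A, SESN2, DDIT4, DDIT3, TRIB3, ASNS and CHAC1. A peak belonged to a gene when its summit lay inside that gene, or lay within 100 kb of its ends with no other protein-coding gene nearer. In the deposited lists 107 of 200358 peaks met this rule. They were 29 of 47161 peaks in the PRI-724 list, 25 of 41086 in the EZH2i list, 25 of 51095 in the FSK list and 28 of 61016 in the vehicle list. The gene set was chosen by measured values in part, namely the peaks that TRIB3 and BBC3 gained with PRI-724. Everything from the PRI-724 and vehicle contrast is therefore a description of that choice. Peaks gained with EZH2i and FSK are called against the same vehicle list, so at TRIB3 and BBC3 they are not free of it.

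Cells of 4 groups were studied, with 2 libraries in each. PRI-724, an inhibitor of signalling through the coactivator CBP, was given at 26 µM for 96 h. EPZ-6438, an inhibitor of the Polycomb methyltransferase EZH2 (EZH2i), was given at 62 µM for 96 h. Forskolin (FSK), which activates adenylyl cyclase, was given at 10 µM for 48 h after 48 h of vehicle. Vehicle cells had DMSO for 96 h. All cells were 1 line, NCI-H295R, and FSK differed from the other agents in exposure time as well as in agent. The labels call the libraries of a group biological replicates, but 1 peak list per group was used here. Values therefore come without a spread between replicates, and the groups could not be tested against each other. The 3 treated lists are all set against the same vehicle list.

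The p53 protein is a transcription factor that DNA damage and other stresses stabilise. Its targets stop the cell cycle (CDKN1A), start apoptosis (BBC3) and limit p53 itself (MDM2). In the integrated stress response, kinases that sense amino acid shortage, unfolded proteins, viral RNA or haem deficiency phosphorylate the translation factor eIF2. This lowers general translation and favours that of ATF4, a transcription factor whose targets include DDIT3, TRIB3, ASNS, CHAC1, SESN2 and DDIT4. SESN2 and DDIT4 are also described as p53 targets. RNA and protein were not measured here, so the values describe where chromatin was open and not how far any gene was transcribed.

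The bases before the start of transcription are shown for 5 genes, because they are the sequences over which the start-site peaks described next lay or, at BBC3, did not lie. Each line gives the 250 bases before the annotated start, 5′ to 3′ in the direction of the gene, from RefSeq on GRCh38.p14. Capitals mark matches on either strand to the C/EBP-ATF response element (TGATGNAAN) or to the AP-1 element (TGANTCA).
TRIB3 (chr20:381045-381294, plus strand): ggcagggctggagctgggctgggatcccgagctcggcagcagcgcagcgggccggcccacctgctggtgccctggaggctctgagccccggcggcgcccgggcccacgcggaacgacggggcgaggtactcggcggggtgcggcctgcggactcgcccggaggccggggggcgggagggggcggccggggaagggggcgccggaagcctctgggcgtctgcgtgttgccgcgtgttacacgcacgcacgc
BBC3 (chr19:47232668-47232917, minus strand): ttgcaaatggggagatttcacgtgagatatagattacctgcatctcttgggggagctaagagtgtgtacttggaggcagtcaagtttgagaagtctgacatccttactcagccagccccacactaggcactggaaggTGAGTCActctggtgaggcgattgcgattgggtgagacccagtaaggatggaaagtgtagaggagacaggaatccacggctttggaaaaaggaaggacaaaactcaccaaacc
DDIT3 (chr12:57520515-57520764, minus strand): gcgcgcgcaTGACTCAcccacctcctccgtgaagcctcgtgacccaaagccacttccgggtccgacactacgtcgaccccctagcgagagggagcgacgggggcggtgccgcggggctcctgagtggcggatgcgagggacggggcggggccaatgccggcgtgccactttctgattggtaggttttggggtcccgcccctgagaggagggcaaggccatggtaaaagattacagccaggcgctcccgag
ASNS (chr7:97872409-97872658, minus strand): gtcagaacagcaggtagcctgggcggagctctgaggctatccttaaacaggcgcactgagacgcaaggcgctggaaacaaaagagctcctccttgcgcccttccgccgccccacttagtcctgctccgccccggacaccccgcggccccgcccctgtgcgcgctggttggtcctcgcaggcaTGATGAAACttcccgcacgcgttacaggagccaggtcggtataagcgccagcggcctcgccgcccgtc
CHAC1 (chr15:40953221-40953470, plus strand): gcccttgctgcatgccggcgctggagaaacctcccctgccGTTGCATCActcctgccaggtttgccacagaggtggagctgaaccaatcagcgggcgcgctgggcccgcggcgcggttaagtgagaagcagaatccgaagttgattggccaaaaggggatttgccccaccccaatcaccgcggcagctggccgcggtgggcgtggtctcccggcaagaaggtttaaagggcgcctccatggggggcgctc

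ASNS held its match to the C/EBP-ATF response element from base -68 to base -60 before the start, and CHAC1 held one on the opposite strand from base -210 to base -202. Of all protein-coding promoters of the same length, 348 of 15812 held that motif (2.2%). DDIT3 matched the AP-1 element from base -241 to base -235 and BBC3 from base -113 to base -107, against 5.05% of all promoters. The CRE (TGACGTCA), present in 2.32% of promoters, and the single p53 decamer, present in 5.1%, had no match in any of the 9 genes with an entry. The conserved end of the endoplasmic reticulum stress element (CCACG) matched in 4 of the 9, namely BBC3, DDIT4, TRIB3 and CHAC1, against 39.0% of all promoters. A match in this window is a description of letters and not of a bound factor. TRIB3 had a G and C content of 78.8% and BBC3 of 49.2%, against a median of 62.4% over all promoters.

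The start sites of 8 of the 9 genes with a promoter entry (from 250 bases before to 50 bases after a start) were open in every list. Over all 15812 genes with an entry, a peak touched the promoter window of 68.7% in the PRI-724 list, 67.1% in the EZH2i list, 66.9% in the FSK list and 68.5% in the vehicle list. None of the 8 promoter peaks was lost with any agent. A count of 0 of 8 allows a share of up to 37.5%, and over all genes with a vehicle promoter peak the share lost was 1.5% with PRI-724, 3.02% with EZH2i and 3.53% with FSK. With 8 genes the limit is too wide to tell them apart from that background. The exception among the 9 was BBC3, whose window was touched by no peak. That window covers only the annotated start used here. Starts elsewhere in the gene were not examined, so the absence does not show that BBC3 lacked an open start. The nearest BBC3 peak, inside the gene, ended 816 bp short of the window in the PRI-724 list, 683 bp in the EZH2i list, 710 bp in the FSK list and 961 bp in the vehicle list.

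**Figure D1:**
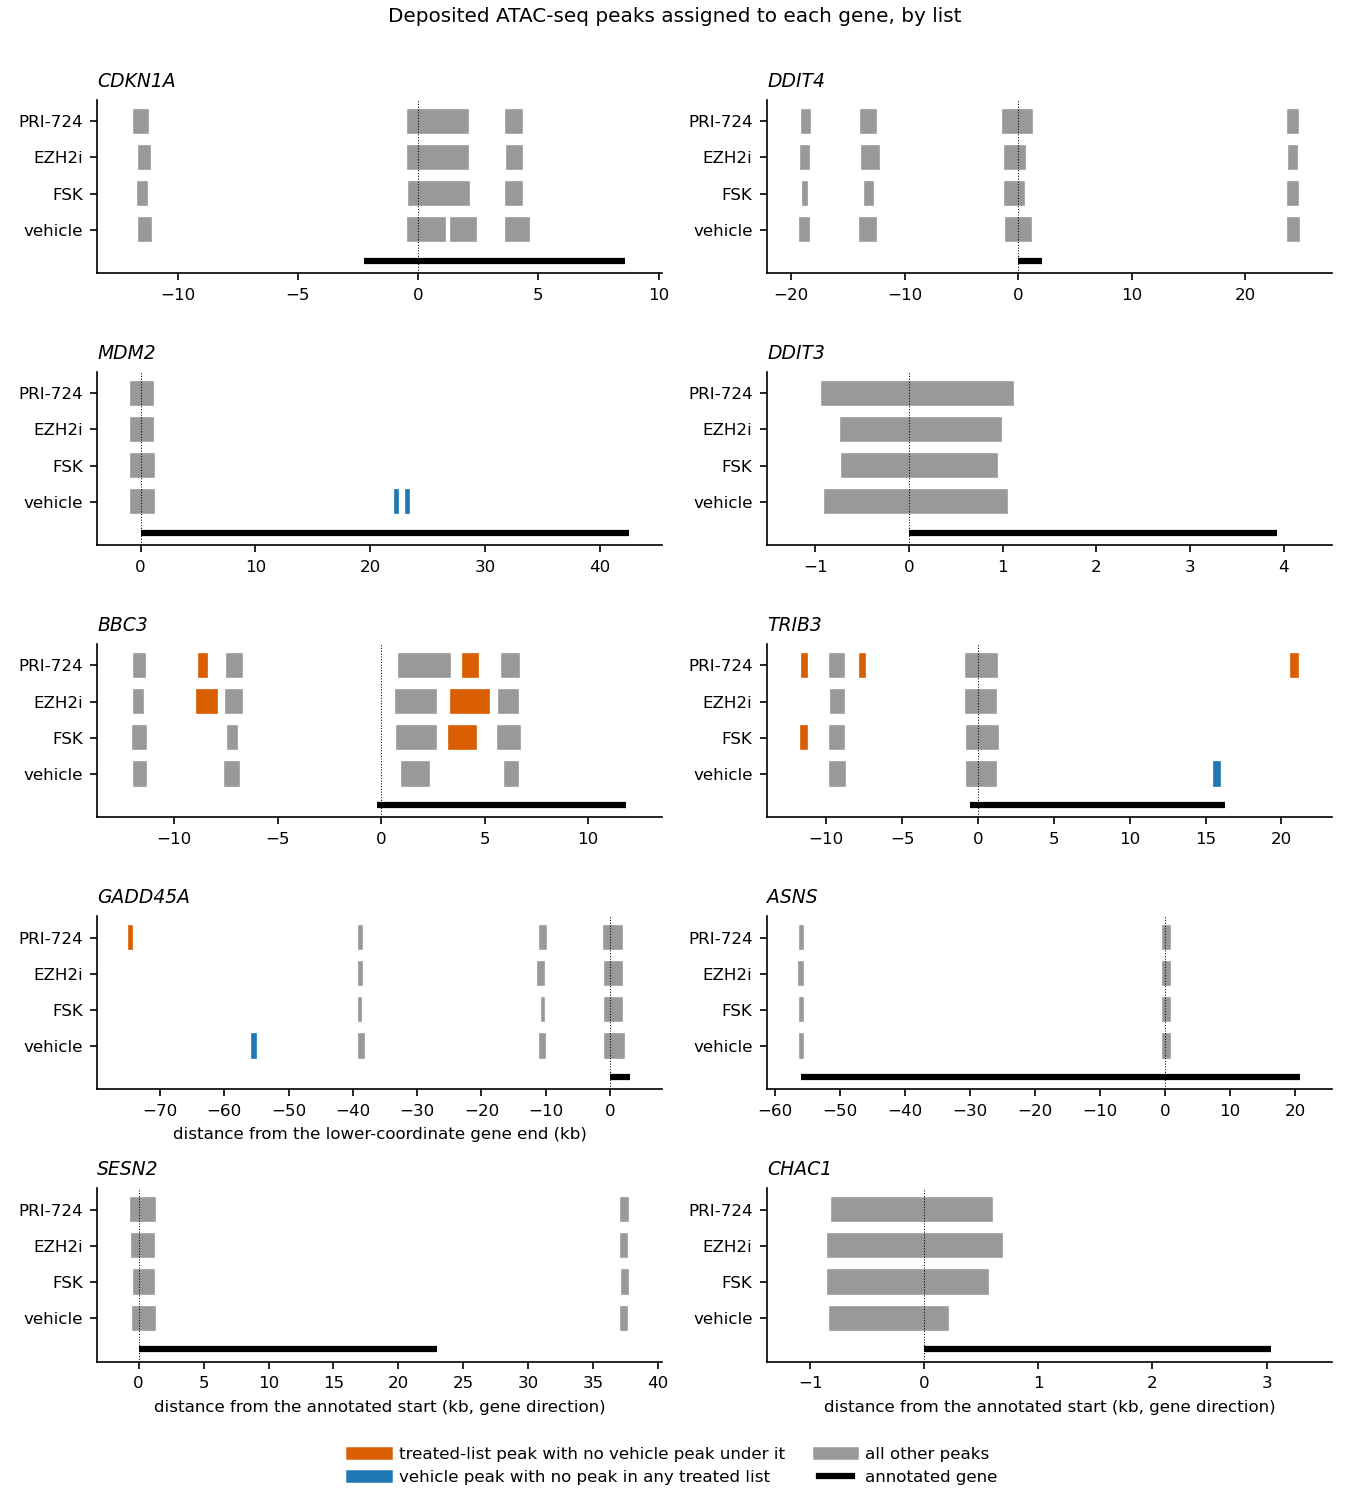
Peaks assigned to each of the 10 genes, 1 panel per gene, with the 4 lists as rows (PRI-724, EZH2i, FSK, vehicle) and distance from the annotated start in kb on the x axis (for GADD45A, from its lower-coordinate end). Orange bars are treated-list peaks with no vehicle peak under them, blue bars vehicle peaks absent from every treated list, grey bars all others, and the black line is the gene: orange bars stand only at BBC3, GADD45A and TRIB3, blue bars only at MDM2, GADD45A and TRIB3.

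The size of a peak is given as the authors' area, which sums the significance under the peak. Areas depend on depth, which is unknown, so they are read within a list and not between lists. GADD45A, which encodes a growth arrest and DNA damage inducible protein, had the largest start-site peak in each list. It has no promoter entry, and the peak at its lower-coordinate end is taken, which makes 9 genes with a start-site peak. Its area was 8803 in the PRI-724 list, 7250 in the EZH2i list, 7890 in the FSK list and 9074 in the vehicle list. Between 0.211% and 0.307% of all peaks were larger in each list. ASNS had the smallest in the PRI-724 and EZH2i lists, SESN2 in the FSK list and CDKN1A in the vehicle list. The median promoter peak of all genes had an area of 2418 in the PRI-724 list, 1747 in the EZH2i list, 1780 in the FSK list and 2380 in the vehicle list. Every start-site peak of the 9 genes exceeded the median of its own list except that of CDKN1A in the vehicle list, at 2135. There the stretch was called as 2 peaks, of areas 2135 and 1459, where each treated list had 1. The vehicle area of CDKN1A, and its last place in that list, therefore cover only part of the stretch.

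**Figure D2:**
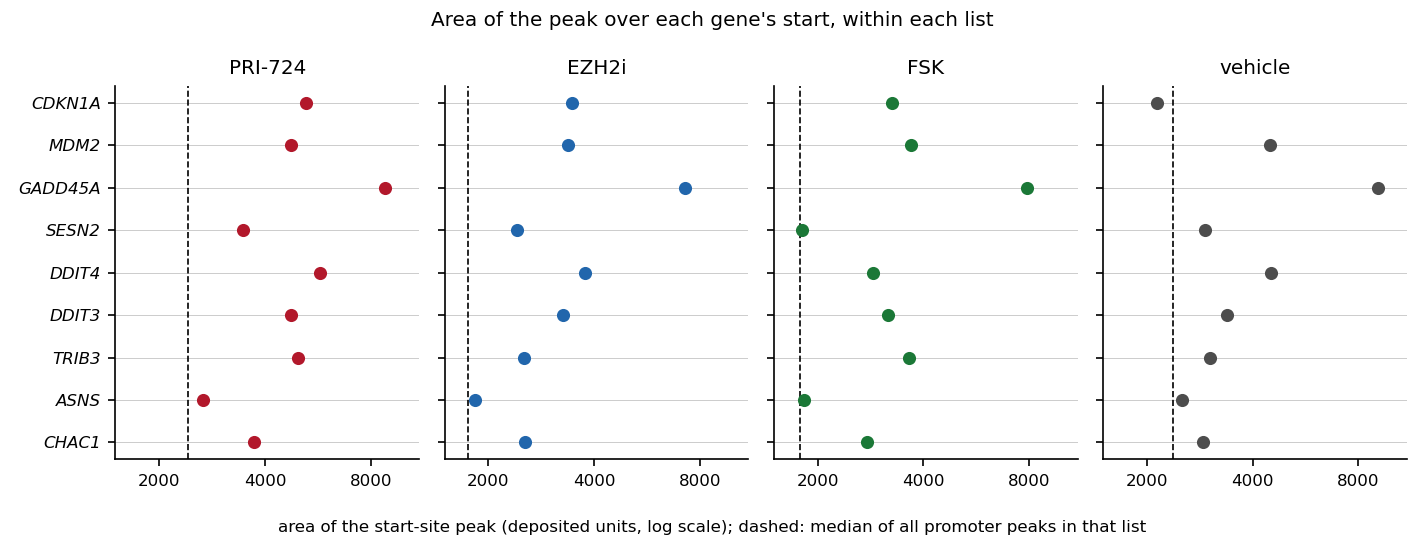
Area of the peak over the start of each gene (deposited units, log scale), 1 panel per list (PRI-724, EZH2i, FSK, vehicle), with the dashed line at the median of all promoter peaks in that list. GADD45A lies farthest right in each panel, from 7250 in the EZH2i list to 9074 in the vehicle list, and panels are not comparable in level.

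CDKN1A encodes p21, an inhibitor of cyclin-dependent kinases and a classical p53 target. Its start-site peak reached from 36678280 to 36680796 on chromosome 6 (hg38) in the PRI-724 list, an unbroken 2517 bp. It measured 2492 bp in the EZH2i list and 2470 bp in the FSK list. In the vehicle list the same stretch held 2 peaks of 1574 bp and 1007 bp with 249 bp between them. The treated lists thus had 1 peak where the vehicle list had 2, and the count of 3 CDKN1A peaks per treated list against 4 with vehicle reflects that join. A peak inside the gene, at 36682347 to 36683035 in the PRI-724 list, and another 9138 to 9152 bp before the gene were present in all 4 lists. No CDKN1A peak was gained or lost.

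MDM2 encodes the ubiquitin ligase that degrades p53. Its start-site peak had an area of 4736 with PRI-724, 3380 with EZH2i, 3681 with FSK and 4483 with vehicle. It spanned 1949, 1985 and 1948 bp in the PRI-724, EZH2i and FSK lists, and 2006 bp in the vehicle list. Position and width of this peak were thus nearly the same in the 4 lists. The vehicle list alone held a pair of small peaks deeper in the gene, at 68830302 to 68830555 and 68831248 to 68831525 on chromosome 12. Their areas were 385 and 319, and 67.9% and 76.8% of vehicle peaks were larger. Both were lost with each agent.

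BBC3 encodes PUMA, an activator of apoptosis, and held more peaks than the other 9 genes in each treated list, 6 with PRI-724, 6 with EZH2i and 5 with FSK, against 4 with vehicle. Its main peak lay inside the gene on chromosome 19. It reached from 47229344 to 47231801 in the PRI-724 list, 47230022 to 47231934 in the EZH2i list, 47230038 to 47231907 in the FSK list and 47230378 to 47231656 in the vehicle list. The summit was 1456 bp inside the annotated start with PRI-724, 2192 bp with EZH2i, 1453 bp with FSK and 1438 bp with vehicle. Next to it, a peak with no vehicle counterpart was listed at 47227988 to 47228728 with PRI-724 (area 260), at 47227461 to 47229289 with EZH2i (559) and at 47228099 to 47229380 with FSK (393). Each of the 3 treated lists thus held a gained peak at this place. Upstream of the gene a further peak was gained at 47241077 to 47241491 with PRI-724 (278) and at 47240621 to 47241569 with EZH2i (256), 8416 and 8497 bp from the gene, and the FSK list had none there. Both BBC3 peaks gained with PRI-724 were small, since 87.6% and 84.3% of that list's peaks were larger. The 4 vehicle peaks of BBC3 were kept with each agent.

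**Figure D3:**
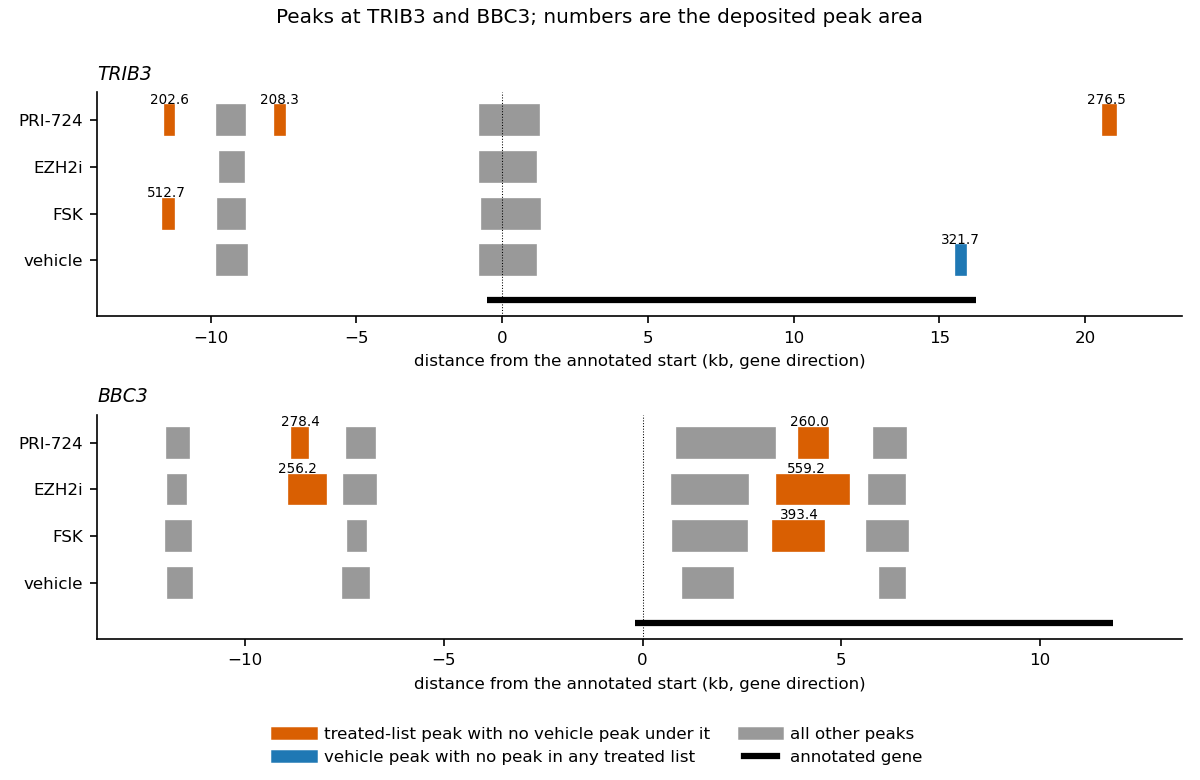
Peaks at TRIB3 (top) and BBC3 (bottom) with the 4 lists as rows and distance from the annotated start in kb on the x axis. Numbers give the deposited area of gained (orange) and lost (blue) peaks, which run from 202.6 to 278.4 for the 5 gained in the PRI-724 list.

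Around GADD45A a stretch of 109.7 kb was assigned to the gene, the widest after that of ASNS. Its start-site peak and 2 distal peaks were present in all 4 lists. The distal peak 10369 to 10480 bp away had an area of 1816 with PRI-724, 1356 with EZH2i, 403 with FSK and 1672 with vehicle. Within their own lists 22.2%, 24.4%, 62.6% and 19.4% of peaks were larger, in the same order. The other, 38726 to 38991 bp away, had areas of 482, 265 and 232 with PRI-724, EZH2i and FSK, and 828 with vehicle. PRI-724 gained a peak at 67610408 to 67610829 on chromosome 1, 74448 bp away, with an area of 362. A vehicle peak at 67629472 to 67630105, with an area of 305, was lost with each agent.

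SESN2 and DDIT4 encode stress-induced inhibitors of the growth kinase complex mTORC1. Neither gained or lost a peak with any agent. SESN2 had 2 peaks in every list, one at the start and one 14305 to 14514 bp from the gene. The start-site peak of SESN2 had an area of 3476 with PRI-724, 2413 with EZH2i, 1799 with FSK and 2919 with vehicle. DDIT4 had 4 in every list, and its start-site peak had an area of 5755 with PRI-724, 3779 with EZH2i, 2879 with FSK and 4514 with vehicle. In the PRI-724, EZH2i and vehicle lists that peak ranked after GADD45A alone among the start-site peaks of the 9 genes, and in the FSK list its rank was 6. The strongest distal peak of DDIT4, 22044 to 22109 bp from the gene, had areas of 2206, 1359 and 1191 with PRI-724, EZH2i and FSK, and 2070 with vehicle. Its peak 18686 to 18693 bp away was nearest the border of the rule, being 678 to 692 bp closer to DDIT4 than to ANAPC16.

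DDIT3 encodes CHOP, a transcription factor of the late, apoptotic branch of the stress response. Its single peak, over the start, had an area of 4740 with PRI-724, 3253 with EZH2i, 3174 with FSK and 3375 with vehicle. The AP-1 match printed above lies inside it in every list. The neighbouring gene MBD6 stood only 20 bp farther from the summit in the PRI-724 list and 32 bp in the vehicle list, so the assignment to DDIT3 rests on a few bases. In the EZH2i and FSK lists another annotated gene, LOC128125814, was 37 bp farther than DDIT3. Just outside the rule, a vehicle peak of area 410 stood 1306 bp from DDIT3 and inside MBD6. Peaks of area 280 with PRI-724, 201 with EZH2i and 271 with vehicle were nearer to ATP5IF1 than to SESN2. The PRI-724 one stood 10548 bp from ATP5IF1 and 10870 bp from SESN2.

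TRIB3 encodes a pseudokinase that ATF4 and CHOP induce and that restrains AKT and ATF4. Its start-site peak had an area of 4980 with PRI-724, 2524 with EZH2i, 3629 with FSK and 3022 with vehicle. Relative to the annotated start the summit stood at -455 bp with PRI-724, -520 bp with EZH2i and -496 bp with FSK, and at -255 bp with vehicle, so it lay farther upstream in each treated list. Summits of the other 7 genes with a promoter peak ranged over 24 bp (ASNS) to 153 bp (MDM2) across the 4 lists, and those of TRIB3 over 265 bp. The peak borders at TRIB3 were alike, from 380518 to 382571 on chromosome 20 with PRI-724, 380529 to 382455 with EZH2i, 380598 to 382591 with FSK and 380538 to 382460 with vehicle. The annotated gene reaches upstream of this start, and all 4 summits lay inside it. The distance between summits has no error, because a summit is a single point of 1 list.

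PRI-724 gained 3 peaks at TRIB3. The first, at 369710 to 370017, lay 10892 bp from the gene with an area of 203, and the FSK list also had a gained peak there, at 369662 to 370032 with an area of 513. Another, at 373506 to 373826, had an area of 208, and the one at 401900 to 402362, beyond the far end of the gene, had 277. Neither of these had a counterpart in the EZH2i, FSK or vehicle list. Of all PRI-724 peaks 99.4%, 98.1% and 84.5% were larger than these 3 peaks, in the order given. EZH2i gained no peak at TRIB3. A kept distal peak at 371519 to 372482 in the PRI-724 list had an area of 2177, and of 829 with EZH2i, 1979 with FSK and 1685 with vehicle. Within their own lists 18.2%, 37.7%, 13.2% and 19.3% of peaks were larger, in the same order. By that measure it ranked highest in the FSK list, and nearly alike in the PRI-724 and vehicle lists. A vehicle peak near the far end of the gene, at 396862 to 397221 with an area of 322, was lost with each agent.

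ASNS encodes asparagine synthetase and CHAC1 an enzyme that degrades glutathione. ASNS kept a peak over its start, on chromosome 7, with areas of 2673, 1833 and 1827 with PRI-724, EZH2i and FSK, and 2519 with vehicle. A smaller one at the upstream end of the annotated gene had areas of 803, 606 and 551 with PRI-724, EZH2i and FSK, and 925 with vehicle. CHAC1 had 1 peak in every list, on chromosome 15, with an area of 3715 with PRI-724, 2538 with EZH2i, 2759 with FSK and 2885 with vehicle. It was 1409 bp wide with PRI-724, 1524 bp with EZH2i and 1403 bp with FSK, and 1035 bp wide with vehicle, reaching farther into the gene in the treated lists. The printed response-element matches of both genes lay inside these peaks in every list. Neither gene gained or lost a peak.

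Chained over the 4 lists, the peaks of the 10 genes formed 32 regions, of which 23 held a peak in every list. The same share over all peaks was not computed, so nothing particular to these genes is read from it. With PRI-724, 24 of the 28 vehicle peaks were kept and 4 lost (14.3%, 95% Wilson interval 5.7 to 31.5), and over all vehicle peaks 30.6% were lost. EZH2i and FSK gave the same count, 4 of 28, where 37.7% and 30.2% of all vehicle peaks were lost. The members' interval ends below the EZH2i background and includes the FSK background. In each contrast the lost peaks were the pair inside MDM2, the distal GADD45A peak and the TRIB3 peak near its far end. The 3 counts share the vehicle list and so are not separate observations of these peaks.

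Peak size moved with loss. The 4 lost peaks were the only 4 vehicle peaks of the members with an area under 400, and 65.6% of all vehicle peaks under 400 were lost with PRI-724, 78.1% with EZH2i and 64.6% with FSK. Of the members' 24 larger vehicle peaks 0 were lost, which allows a share of up to 12.5% by the limit of 3 counts and 13.8% by the Wilson interval. Over all vehicle peaks of area 400 or more 12.7% were lost with PRI-724, 17% with EZH2i and 12.7% with FSK. The PRI-724 and FSK shares lie between the 2 limits, so at this number of peaks the members cannot be told apart from them. The EZH2i share lies above both limits, but the 0 rests on matching against full treated lists. With treated-list peaks under 400 left out as well, 22 of 24 were kept with EZH2i and 22 of 24 with FSK. Only 14.3% of the members' vehicle peaks had an area under 400, against 33.9% of all vehicle peaks. Whether size accounts for the members' low share of lost peaks was not tested.

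**Figure D4:**
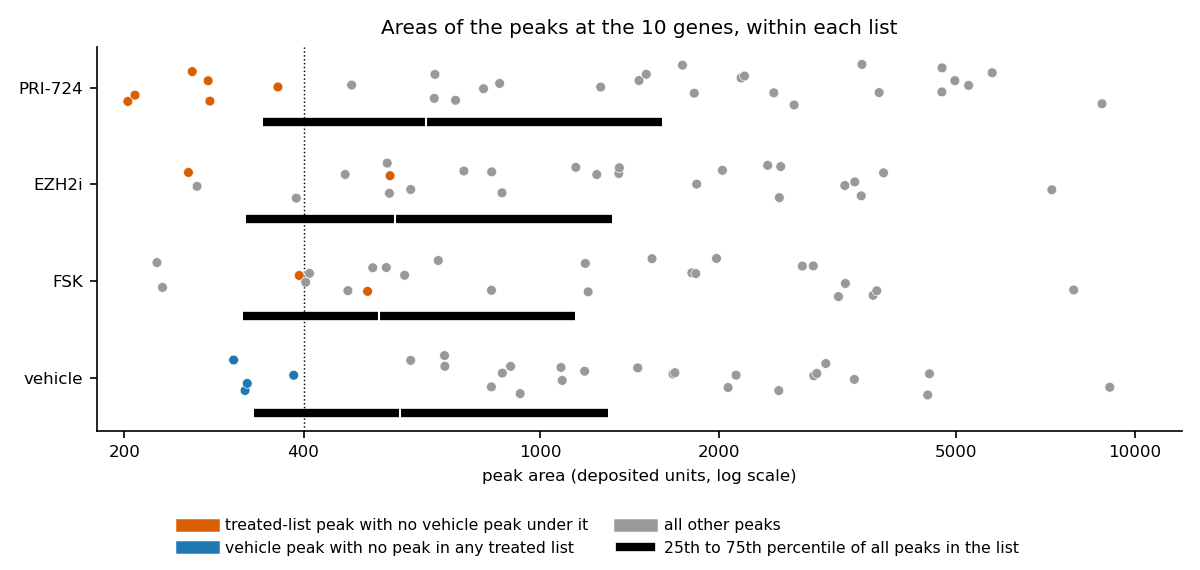
Areas of all peaks at the 10 genes (deposited units, log scale), 1 row per list (PRI-724, EZH2i, FSK, vehicle), each point a peak, with gained peaks in orange and lost vehicle peaks in blue. Black bars run from the 25th to the 75th percentile of all peaks in the list and the dotted line stands at 400: the 6 gained PRI-724 peaks and the 4 lost vehicle peaks all lie left of it.

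Gained peaks were 6 of 29 with PRI-724 (20.7%, 9.85 to 38.4), where 10.7% of all PRI-724 peaks were gained. This count was part of the choice of genes and nothing is read from it. With EZH2i 2 of 25 were gained (8%, 2.22 to 25.0), both at BBC3, against 6.98% of all EZH2i peaks. With FSK 2 of 25 were gained (8%, 2.22 to 25.0), 1 each at BBC3 and TRIB3, against 15.9% of all FSK peaks. Both intervals include their background, but these 2 counts are not free of the choice either. TRIB3 and BBC3 were chosen for places without a vehicle peak, and the same vehicle list defines these gains. Without TRIB3 and BBC3, 0 of 17 peaks were gained with EZH2i and 0 of 17 with FSK. All 6 peaks gained with PRI-724 had areas under 400, as did 1 of the 2 gained with EZH2i and 1 of the 2 gained with FSK. Over all peaks under 400 in their own lists, 26.4% were gained with PRI-724, 16% with EZH2i and 31.9% with FSK. Among all peaks gained with PRI-724, 78.6% had an area under 400. With both inhibitors and FSK, the genes CDKN1A, MDM2, SESN2, DDIT4, DDIT3, ASNS and CHAC1 gained 0 peaks. The share of all genes that gained none was not computed, so nothing particular to these genes is read from it.

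Other genes of the same pathways were taken from 2 lists, 29 further p53 pathway genes and 37 further stress response genes, with GDF15 in both. Near the p53 pathway genes 11 of 70 vehicle peaks were lost with PRI-724 (15.7%, 9.01 to 26.0), 18 with EZH2i (25.7%, 16.9 to 37.0) and 16 with FSK (22.9%, 14.6 to 33.9). Each share lies under the background of its contrast, with the FSK interval including it. The 70 peaks were not split by area, so whether peak size accounts for the lower shares was not tested. The 3 counts share the vehicle list and are not separate observations. Gained peaks were 4 of 63 with PRI-724 (6.35%, 2.5 to 15.2) and 9 of 68 with FSK (13.2%, 7.12 to 23.3), and both intervals include the share over all peaks, 10.7% and 15.9%. With EZH2i 0 of 54 were gained, which allows up to 5.56% by the limit of 3 counts and 6.64% by the Wilson interval, against 6.98% of all EZH2i peaks. None of the 22 vehicle promoter peaks of these genes was lost with any agent. A count of 0 of 22 allows up to 13.6%, so it cannot be told apart from the 1.5%, 3.02% and 3.53% lost over all genes with PRI-724, EZH2i and FSK. PMAIP1, which encodes the apoptosis activator NOXA, gained 2 peaks with FSK, of areas 405 and 265, at 14357 and 92258 bp from the gene.

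Near the stress response genes 21 of 87 vehicle peaks were lost with PRI-724 (24.1%, 16.4 to 34.1), 32 with EZH2i (36.8%, 27.4 to 47.3) and 18 with FSK (20.7%, 13.5 to 30.4). All 3 intervals include the share of all vehicle peaks lost, 30.6%, 37.7% and 30.2% in the same order. Gained peaks were 17 of 81 with PRI-724 (21.0%, 13.5 to 31.1), in 14 of the 37 genes, and 14 of those 17 had areas under 400. The whole interval lies above the PRI-724 background of 10.7%. Over all PRI-724 peaks under 400, however, 26.4% were gained, and whether peak size accounts for the higher share was not tested. The share of all genes with a gained PRI-724 peak was not computed, so nothing is read from the count of 14 genes. Gained peaks were 5 of 58 with EZH2i (8.62%, 3.74 to 18.6) and 10 of 76 with FSK (13.2%, 7.31 to 22.6), both intervals including their background. The 17 peaks do not involve the 10 genes, but they come from the contrast that chose those genes, and the lists were drawn up with earlier results known, so the share is a description. Genes with 2 gained PRI-724 peaks were ATF3, a stress-induced transcription factor (areas 758 and 309), SLC7A5, which encodes a carrier of large neutral amino acids (308 and 308), and VLDLR, a lipoprotein receptor gene (229 and 225). CTH, which encodes a cysteine-forming enzyme, gained 4 peaks with FSK, of areas 302 to 474.

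**Figure D5:**
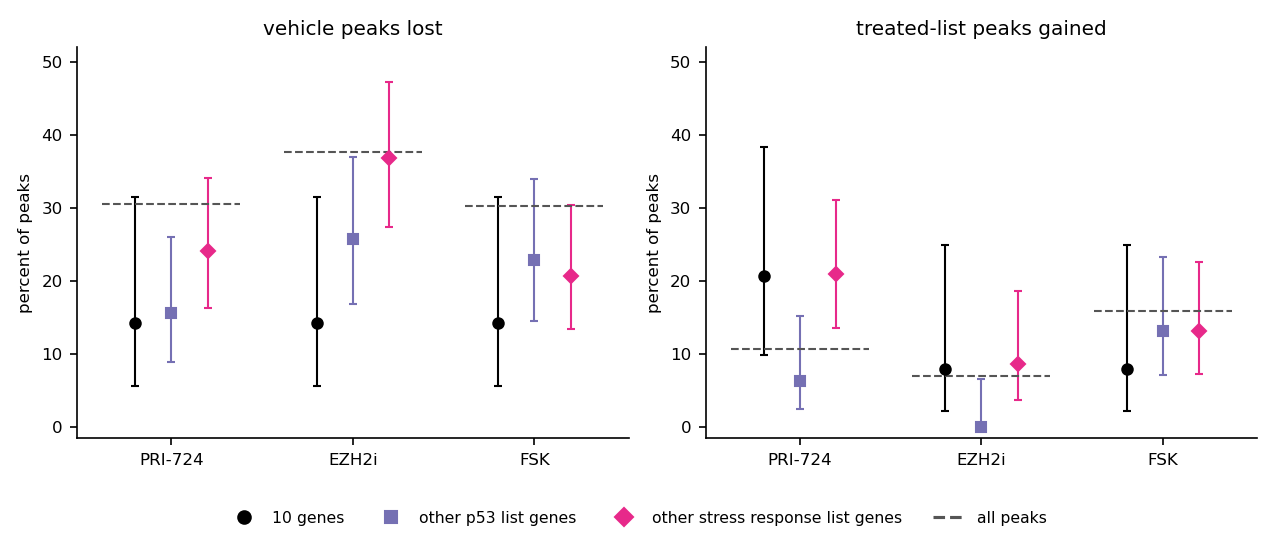
Percent of vehicle peaks lost (left) and of treated-list peaks gained (right) with PRI-724, EZH2i and FSK, for the 10 genes (circles), the further p53 pathway genes (squares) and the further stress response genes (diamonds), with Wilson 95% intervals. The dashed line is the share over all peaks: the stress response genes' gained share with PRI-724 (21.0%) stands above its line of 10.7%. The 10 genes' share with PRI-724 was part of their choice. Their gained shares with EZH2i and FSK use the same vehicle list and are not free of it.

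Among these stress response genes with a promoter entry, promoter peaks differed between lists at 3. NUPR1 has no entry and so is not among the 3. It had no vehicle peak, and gained one 91 bp from the gene with PRI-724 and 47 bp from it with EZH2i, described at the end. Of the 32 stress response genes with an entry, 25 had a vehicle promoter peak. PRI-724 lost 0 of these 25, EZH2i 1 and FSK 1, against 1.5%, 3.02% and 3.53% over all genes with one. Among the rest, a promoter peak appeared at 1 gene with PRI-724, 1 with EZH2i and 2 with FSK. Over all genes without a vehicle promoter peak, one appeared with PRI-724 at 3.72%, with EZH2i at 1.91% and with FSK at 2.63%. No interval was computed for these counts, so nothing is read from them. JDP2, which encodes a partner of JUN proteins, acquired a promoter peak with PRI-724 at 75428006 to 75428605 on chromosome 14 (area 387) and with FSK at 75427962 to 75428606 (207), and the EZH2i and vehicle lists had none there. ATF4, the central factor of the pathway, had a peak that touched its promoter window with EZH2i and FSK. With PRI-724 and vehicle a peak at the same place ended 10 and 69 bp short of the window, so only a border differed. SLC7A5 had its promoter peak at 87869055 to 87869677 on chromosome 16 with PRI-724 (area 474) and at 87868991 to 87869687 with vehicle (807), and none with EZH2i or FSK.

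The labelled cell type was checked against adrenocortical markers with a promoter entry. NR5A1, NR0B1, CYP11A1 and CYP17A1 had a promoter peak in all 4 lists, MC2R in the FSK and vehicle lists, CYP21A2 in the FSK list, and HSD3B2 in none. Neither immune marker with an entry (PTPRC, CD14) had one in any list. Of the fibroblast, endothelial and chromaffin markers with an entry, PDGFRA, KDR and CHGA had a promoter peak in every list, and PDGFRB, TEK and DBH had none.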

How the data were processed

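ATAC-seq was done on 8 libraries in 4 groups of 2, and 1 narrowPeak list per group was used, on hg38. The submitters' processing notes name Bowtie2, Genrich and deepTools 2.0. How libraries were combined, with caller settings, read filters and Tn5 shifting, is not given in the sources used here. The deposited signal is the area of significance under each peak, the deposited score is, from the values, that area per width, scaled and capped, and the deposited −log10 is of the summit p-value. A pooled list shows no spread between libraries, and read depth per library is unknown, so no test was run.

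Gene coordinates came from RefSeq on GRCh38.p14, the build of hg38, for 19974 protein-coding genes. All 10 genes matched, 9 of them with a promoter entry. Exons, introns and UTRs were not annotated. A vehicle peak with at least 1 bp under a treated-list peak was kept, otherwise lost, and a peak of a treated list that shared no base with a vehicle peak was gained. A peak leaves a list also by falling just under the threshold of the caller. Wilson 95% intervals and limits for counts of 0 (3 counts) cover counting error only and treat peaks as independent. Near-identical copies of a sequence were not examined. All 10 genes are described; of the pathway lists, genes with a changed promoter peak or at least 2 gained peaks are named. The genes and lists were chosen with earlier results of these data known. The overlap and assignment steps were tested on simulated intervals. Python 3.11.15, pandas 2.3.3, numpy 2.4.6 and statsmodels 0.14.6 were used. Alternatives were another overlap rule, an area of at least 400, lists of equal length, a 20 kb window and the set without TRIB3 and BBC3.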

Additional observations from a re-analysis of the deposited data

How the results depend on the processing

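Counts of kept vehicle peaks at the 10 genes stayed within 1.5 times of 24 under every alternative run. This is a loose check, because the number of vehicle peaks itself changed, from 28 to 25, 24 or 21 in some alternatives. With only peaks of area 400 or more in both lists, 24 of 24 were kept with PRI-724, 22 of 24 with EZH2i and 22 of 24 with FSK. Counts of gained peaks did not all stay within 1.5 times of their main values. With only peaks of area 400 or more they were 0 with PRI-724, 1 with EZH2i and 1 with FSK, because gained peaks under 400 leave the lists. Without TRIB3 and BBC3 they were 1, 0 and 0 in the same order. With all lists at the 41086 peaks of the shortest, PRI-724 gained 3, namely those with the largest area at TRIB3, BBC3 and GADD45A, and it also gained 3 when those peaks were matched against the full vehicle list, an alternative added after seeing the data. With reciprocal overlap of at least 50%, FSK gained 5. The summit rule and the 20 kb window left all 6 counts within 1.5 times. No paired analysis was possible because each group has 1 list. Leaving out a library was not possible for the same reason. Depth is unknown, and each peak gained with PRI-724 lay under area 400, where absence from another list can be a matter of threshold.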

Other observations

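PPP1R15A, NUPR1 and ATF3 are stress response genes singled out here after their values were seen, as the 3 with a gained PRI-724 peak of area 400 or more. PPP1R15A encodes GADD34, the phosphatase subunit that reverses eIF2 phosphorylation. A peak inside it was gained with PRI-724 at 48875156 to 48875997 on chromosome 19 (area 984, with 36.9% of that list larger), with EZH2i at 48875212 to 48875997 (506) and with FSK at 48875214 to 48875487 (208). NUPR1, which encodes a small stress-induced nuclear protein, gained a peak 91 bp from the gene with PRI-724 (670) and 47 bp from it with EZH2i (298). The peak with an area of 758 that ATF3 gained with PRI-724 lay 52209 bp from that gene, where EZH2i gained one of area 217.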
